A study of Homo sapiens with 4 samples.

Results

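The genes described are the 2 corticosteroid receptors NR3C1 (the glucocorticoid receptor) and NR3C2 (the mineralocorticoid receptor) and 6 genes that the glucocorticoid receptor is known to switch on, SGK1, TSC22D3, PER1, KLF9, ZBTB16 and DUSP1. These 8 genes were taken by symbol from the 33538 genes listed for every library, a choice made with earlier results of these data known although the symbols themselves set no threshold on a value. Droplet single-cell RNA sequencing of sorted living cells gave 4 libraries, 1 per group, of LNCaP, a human prostate cancer line, and its descendants. The first group was parental LNCaP held for 48 h in 0.1% DMSO, the solvent of the drug. The second, LNCaP-ENZ48, was the same parental line after 48 h in 10 µM enzalutamide, an antagonist of the androgen receptor. RES-A came from LNCaP passaged in rising enzalutamide and RES-B from LNCaP kept in the related antiandrogen RD-162, and both lines received 10 µM enzalutamide at each feeding. All 4 cultures grew in the same medium with 10% fetal bovine serum, and the methods name no added glucocorticoid. The question put to the data was whether the glucocorticoid receptor and its targets stood higher where androgen receptor output was blocked or resistance had set in.

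The glucocorticoid receptor waits in the cytoplasm on an HSP90 chaperone complex, binds cortisol, moves to the nucleus and switches genes on from response elements close to those used by the androgen receptor. In prostate cells the receptors therefore share part of their targets, and the glucocorticoid receptor is known from prostate cancer as a candidate bypass when the androgen receptor is inhibited. The mineralocorticoid receptor binds cortisol and aldosterone, and the enzyme HSD11B2 inactivates cortisol before it reaches either receptor.

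Between 1782 and 4569 cells per library passed the limits on genes, UMIs and mitochondrial share that the study set for each library. A UMI (unique molecular identifier) stands for 1 captured RNA molecule, and the kept cells held between 50208831 and 60838227 UMIs per library. Cells were deeper in LNCaP, with a median of 27080 UMIs, than in the other libraries, whose medians lay between 12138 and 13676. Between 2 and 12 cell barcodes were shared by any pair of libraries. The 7 luminal prostate markers were all detected in every library, with a summed level between 1479 and 1834 CPM (UMIs scaled to a common library total). Of 10 markers of fibroblasts, endothelium, leukocytes and basal cells, PTPRC, CD3E, TP63, KRT5 and COL1A2 were at 0 UMIs in all 4 libraries, and the summed level of the 10 lay between 1.99 and 4.54 CPM. With 1 library per group no difference has a replicate check, so no test was run, and every 95% interval below covers counting error only.

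Sequences at the start sites were searched for response-element letters, as a description of the genes whose levels follow. The RefSeq promoter table for GRCh38.p14, with 250 bases before and 50 after each start site, held 21 promoters of 7 of the 8 members, and ZBTB16 was the member with no entry. On both strands, the glucocorticoid half-site TGTTCT was found in 14.8% of all 35116 promoters, the full palindrome GNACANNNTGTNC in 0.39%, the forkhead motif TGTTTAC in 3.42%, the cyclic AMP response element TGACGTCA in 1.85% and the E-box CACGTG in 7.26%. A match of the palindrome can overlap one of the half-site. The half-site was present in 1 of the 21 promoters, that of an SGK1 start, where it begins 5 bases after the start and reads AGAACA on the printed strand. The forkhead letters were present in 1 TSC22D3 promoter, 147 bases before the start, and in 1 NR3C1 promoter (chr5:143403234-143403533, minus strand), 59 bases before it. DUSP1 carried the cyclic AMP element 125 and an E-box 108 bases before its start, and PER1 an E-box 173 bases before. The palindrome was in none of the 21, and a response element outside these windows was not searched for. The 4 target promoters with a match are shown from 250 bases before to 20 after the start, 270 bases on the minus strand of GRCh38.p14, with the matched letters in capitals. They lie at chr6:134177842-134178111 (SGK1), chrX:107717043-107717312 (TSC22D3), chr17:8152385-8152654 (PER1) and chr5:172771176-172771445 (DUSP1).
SGK1: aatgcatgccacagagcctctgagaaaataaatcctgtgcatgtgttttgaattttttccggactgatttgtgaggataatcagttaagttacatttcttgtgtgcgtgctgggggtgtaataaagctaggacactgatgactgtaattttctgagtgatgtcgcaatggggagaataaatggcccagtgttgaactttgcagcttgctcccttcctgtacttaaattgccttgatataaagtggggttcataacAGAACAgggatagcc
TSC22D3: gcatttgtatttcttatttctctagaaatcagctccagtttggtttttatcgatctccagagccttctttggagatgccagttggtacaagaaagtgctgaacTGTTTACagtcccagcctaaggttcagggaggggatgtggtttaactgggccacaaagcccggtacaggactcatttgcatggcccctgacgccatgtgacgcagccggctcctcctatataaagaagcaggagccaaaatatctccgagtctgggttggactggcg
PER1: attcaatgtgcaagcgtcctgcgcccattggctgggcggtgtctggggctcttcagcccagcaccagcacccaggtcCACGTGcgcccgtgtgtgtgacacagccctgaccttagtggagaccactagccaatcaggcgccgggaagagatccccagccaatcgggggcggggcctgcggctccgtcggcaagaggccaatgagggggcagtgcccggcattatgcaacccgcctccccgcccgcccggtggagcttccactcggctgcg
DUSP1: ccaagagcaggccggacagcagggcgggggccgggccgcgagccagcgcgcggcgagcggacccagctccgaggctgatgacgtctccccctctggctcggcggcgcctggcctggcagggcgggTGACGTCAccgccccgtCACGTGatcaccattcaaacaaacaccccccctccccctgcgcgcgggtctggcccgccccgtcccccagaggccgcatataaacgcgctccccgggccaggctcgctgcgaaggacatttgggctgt
These are single starts of genes that can have several, and reads from the 3′ end of the RNA do not tell starts apart.

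Against LNCaP, the log2 ratios of the 8 members lay on both sides of 0 in each resistant line. In LNCaP-ENZ48 TSC22D3 was the 1 member above 0, at 0.03, and the signs of NR3C1 and KLF9 turned under other settings. In RES-B against RES-A all 8 log2 ratios were above 0. Of those 8, the intervals of NR3C2 and PER1 included 0, and the signs of NR3C2, SGK1 and PER1 turned under another choice of cells. NR3C1 and SGK1 were higher in RES-B than in parental LNCaP, TSC22D3 was lower in RES-A and slightly above parental in RES-B, and ZBTB16 was lower in every enzalutamide-exposed library. A gene counted as past 2-fold when its log2 ratio of CPM reached 1 in size. The background is given over the 12627 genes whose mean reached 1 CPM over the 4 libraries, and 6 of the 8 members reach that level. NR3C1, at a mean of 0.316 CPM, and SGK1, at 0.669 CPM, do not.

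Like for like, over the 6 members in that background, the counts were as follows. In LNCaP-ENZ48 against LNCaP, 0 were past 2-fold higher and 1 was past 2-fold lower (ZBTB16), where 0.768% of the 12627 genes were past 2-fold higher and 1.25% past 2-fold lower. In RES-A against LNCaP, 0 were higher and 3 lower (TSC22D3, PER1 and ZBTB16), against 7.89% and 6.86% of the genes. In RES-B against LNCaP, 0 were higher and 2 lower (PER1 and ZBTB16), against 7.9% and 5.33%. In RES-B against RES-A, 2 were higher (TSC22D3 and ZBTB16) and 0 lower, against 5.39% and 4.02%.

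Counting NR3C1 and SGK1 as well, which lie outside that background, 3 of the 8 were past 2-fold lower in LNCaP-ENZ48 (with SGK1 and NR3C1), 1 was higher in RES-A (SGK1), 2 were higher in RES-B (NR3C1 and SGK1) and 3 were higher in RES-B against RES-A (with NR3C1). Over all genes with at least 1 UMI, a set that holds them, 9.96% were past 2-fold lower in LNCaP-ENZ48, 16.0% higher in RES-A, 14.8% higher in RES-B and 12.5% higher in RES-B against RES-A. The interval of NR3C1 in LNCaP-ENZ48 included a ratio of 1, and its log2 ratio, -1.01, no longer reached 2-fold with TMM scaling (-0.92), DESeq2 size factors (-0.91), a mitochondrial share under 10% (-0.50) or G1 cells (0.09). The first 3 comparisons share the LNCaP library. Over the 6 members at or above 1 CPM the median log2 ratio was -0.39 for LNCaP-ENZ48, -1.21 for RES-A and -0.13 for RES-B, and 0.36 in RES-B against RES-A. The medians of all 12627 genes were -0.08, 0.02, 0.10 and 0.08 in the same order.

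**Figure D1:**
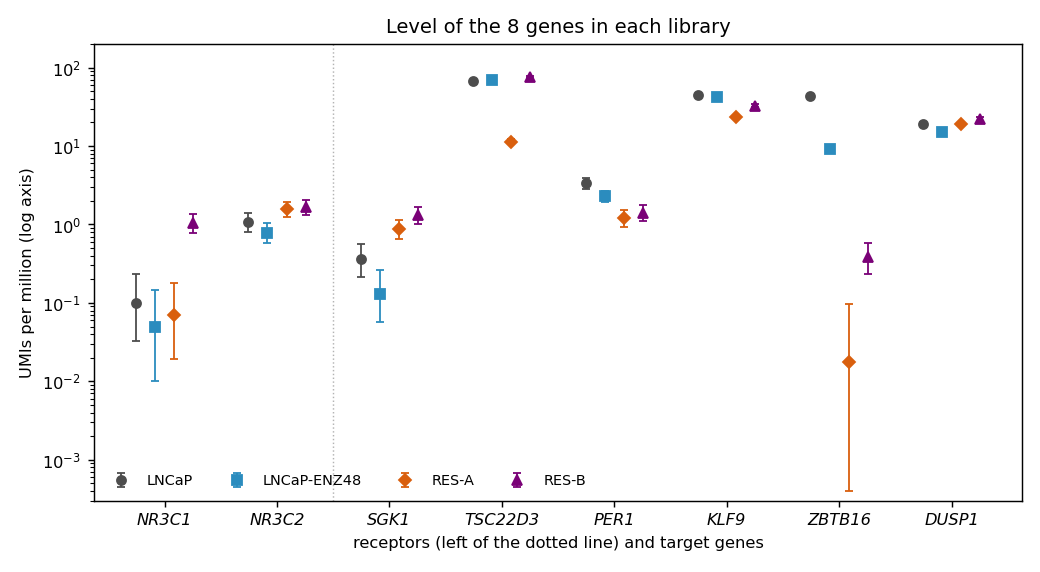
Level of each gene in CPM on a log axis, 1 point per library, with the exact Poisson 95% interval (counting error only) as the bar. NR3C1 stands at 1.05 in RES-B and at or under 0.0996 in the other libraries, TSC22D3 at 11.4 in RES-A and at or above 67.5 elsewhere, and ZBTB16 falls from 42.9 in LNCaP to 0.0174 in RES-A.

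NR3C1, which encodes the glucocorticoid receptor, was close to the detection limit in 3 of the 4 libraries. It had 5 UMIs in LNCaP (0.0996 CPM, exact Poisson 95% interval 0.0323 to 0.232) and 3 in LNCaP-ENZ48 (0.0493 CPM, 0.0102 to 0.144), beside 4 in RES-A (0.0698 CPM, 0.0190 to 0.179) and 55 in RES-B (1.05 CPM, 0.788 to 1.36). RES-B was therefore the high library, and the intervals of the other 3 overlapped one another. The ratio of RES-B to LNCaP was 10.5-fold, a log2 ratio of 3.39 with an exact conditional 95% interval of 2.08 to 5.07. Against RES-A the log2 ratio was 3.91 (2.47 to 5.83). The log2 ratio to LNCaP was -1.01 in LNCaP-ENZ48 (-3.70 to 1.35) and -0.51 in RES-A (-2.85 to 1.70), and a difference of either from LNCaP was not detectable at this depth.

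The share of cells with an NR3C1 UMI was small in RES-B too. After every cell was thinned to 5000 UMIs, NR3C1 was found in 19 of 4061 RES-B cells (0.468%, exact binomial 95% interval 0.282 to 0.730%), in 1 of 1782 LNCaP cells (0.0561%) and in 2 of 4569 RES-A cells (0.0438%). It was found in 0 of 4315 LNCaP-ENZ48 cells, with an exact upper bound of 0.0855% (0.0695% by the limit of 3 counts), which limits the share of cells with a UMI and not the share that express the gene. Without thinning the shares were 0.281% in LNCaP and 0.0695% in LNCaP-ENZ48, beside 0.0875% in RES-A and 0.960% in RES-B. No cell class that should lack the gene exists in these single-line libraries to set beside them, and free RNA was not measured.

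NR3C1 was spread over few RES-B cells, mostly at 1 UMI each. Of 39 RES-B cells with the gene, 32 had 1 UMI, 4 had 2, 1 had 3 and 2 had 6, while no cell of another library had more than 1. The pair of cells with 6 held 12 of the 55 UMIs. Without them, an alternative added after the data were seen, the log2 ratio to LNCaP was 3.04 (1.71 to 4.73) and to RES-A 3.55 (2.09 to 5.49). The 39 cells had a median of 13191 UMIs, beside 12285 over all RES-B cells, and a median mitochondrial share of 12.0%, beside 12.2%. By cell cycle call 27 of them were in G1, 6 in S and 6 in G2/M. The 7 cells with 2 or more NR3C1 UMIs all had the luminal keratins KRT8 (2 to 7 UMIs a cell) and KRT18, 5 had EPCAM and 6 had FOLH1. All 10 markers of other cell types were at 0 in these 7 cells.

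**Figure D2:**
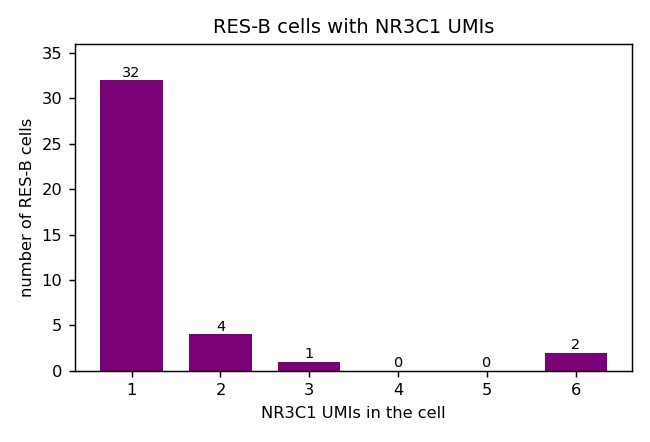
Number of RES-B cells (vertical axis) by the number of NR3C1 UMIs counted in the cell (horizontal axis), with the count above each bar. 32 of the 39 cells carried 1 UMI and 2 cells carried 6.

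NR3C2, which encodes the mineralocorticoid receptor, was low in all libraries and differed little between them. Its level was 1.08 CPM in LNCaP (54 UMIs) and 0.789 in LNCaP-ENZ48 (48), beside 1.55 in RES-A (89) and 1.65 in RES-B (87). Both resistant lines stood above LNCaP-ENZ48 without overlap of the Poisson intervals, and the interval of LNCaP overlapped those of all the others. Against LNCaP the log2 ratio was -0.45 in LNCaP-ENZ48 (-1.04 to 0.14), 0.53 in RES-A (0.03 to 1.04) and 0.62 in RES-B (0.12 to 1.14). In thinned cells it was detected in between 0.281% (LNCaP) and 0.862% (RES-B) of cells.

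TSC22D3, also called GILZ, a leucine zipper protein that mediates part of the anti-inflammatory action of glucocorticoids, separated the resistant lines from each other. It stood at 67.5 CPM in LNCaP (3388 UMIs) and 69.1 in LNCaP-ENZ48 (4205), beside 11.4 in RES-A (654) and 76.7 in RES-B (4034). RES-A was the only low library. Its level was 5.92-fold below LNCaP (log2 ratio -2.56, -2.69 to -2.44), and RES-B stood 6.73-fold above RES-A (2.75, 2.63 to 2.87). RES-B was 1.14-fold above LNCaP (0.19, 0.12 to 0.25). In CPM, LNCaP-ENZ48 did not differ from LNCaP beyond counting error (0.03, -0.03 to 0.10). This depended on the scaling, since the LNCaP-ENZ48 value was 0.13 (0.06 to 0.20) with TMM scaling and 0.14 (0.07 to 0.20) with DESeq2 size factors. The share of thinned cells with TSC22D3 followed the level, at 26.6% in LNCaP and 26.5% in LNCaP-ENZ48, beside 5.54% in RES-A and 29.5% in RES-B. NR3C1 and TSC22D3 both stood above RES-A in RES-B. LNCaP, LNCaP-ENZ48 and RES-A had 5, 3 and 4 NR3C1 UMIs, with overlapping intervals. A link between the levels of NR3C1 and TSC22D3 was not tested.

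ZBTB16, a zinc finger transcriptional repressor also known as PLZF and induced by androgen as well as by glucocorticoid, was lower in all 3 enzalutamide-exposed libraries. Its level was 42.9 CPM in LNCaP (2153 UMIs), 9.22 in LNCaP-ENZ48 (561), 0.380 in RES-B (20) and 0.0174 in RES-A (1 UMI). No interval overlapped another, and the order ran from LNCaP down to RES-A. It was 4.65-fold lower after 48 h of enzalutamide (log2 ratio -2.22, -2.35 to -2.08) and 113-fold lower in RES-B (-6.82, -7.53 to -6.19). In RES-A the log2 ratio was -11.26 with an interval of -16.57 to -8.78, since a single UMI was counted. ZBTB16 was detected in 18.3% of thinned LNCaP cells, 4.61% of LNCaP-ENZ48 cells, 0.172% of RES-B cells and 0.0219% of RES-A cells.

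PER1, a repressor of the circadian clock with a known direct glucocorticoid response, was highest in parental LNCaP. It had 3.35 CPM in LNCaP (168 UMIs) and 2.28 in LNCaP-ENZ48 (139), beside 1.20 in RES-A (69) and 1.41 in RES-B (74). Levels in the resistant lines did not differ beyond counting error, and both lay under the LNCaP-ENZ48 and LNCaP intervals. Against LNCaP the log2 ratio was -0.55 in LNCaP-ENZ48 (-0.89 to -0.22), -1.48 in RES-A (-1.90 to -1.06) and -1.25 in RES-B (-1.66 to -0.85).

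KLF9, a Krüppel-like transcription factor induced by glucocorticoids in many tissues, was lower in the resistant lines and did not differ from LNCaP beyond counting error after 48 h of the drug. It stood at 44.6 CPM in LNCaP (2238 UMIs) and 42.8 in LNCaP-ENZ48 (2601), beside 23.2 in RES-A (1332) and 32.7 in RES-B (1717). RES-A was the lowest and RES-B lay between it and the parental cells, with no overlap of intervals. The log2 ratio was -0.06 in LNCaP-ENZ48 (-0.14 to 0.02), -0.94 in RES-A (-1.04 to -0.84) and -0.45 in RES-B (-0.54 to -0.36). KLF9 in RES-A lay just inside the 2-fold limit, with values from -1.05 to -0.84 under other cell filters and scalings, and the sign in LNCaP-ENZ48 turned under some of them (-0.08 to 0.04).

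SGK1, a serum- and glucocorticoid-regulated kinase that acts on ion channels and survival signals, was the 1 target past 2-fold higher in both resistant lines. It had 0.359 CPM in LNCaP (18 UMIs) and 0.132 in LNCaP-ENZ48 (8), beside 0.872 in RES-A (50) and 1.31 in RES-B (69). Both resistant lines stood above both parental libraries without overlap of intervals, and the parental libraries overlapped each other. The log2 ratio to LNCaP was 1.28 in RES-A (0.48 to 2.15), 1.87 in RES-B (1.11 to 2.71) and -1.45 in LNCaP-ENZ48 (-2.86 to -0.17). SGK1 was nevertheless detected in 0.763% of thinned RES-B cells at most, beside 0.328% in RES-A, 0.168% in LNCaP and 0.0927% in LNCaP-ENZ48.

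DUSP1, a phosphatase that switches off MAP kinases, had the smallest range of ratios among the targets. It stood at 19.0 CPM in LNCaP (953 UMIs) and 15.1 in LNCaP-ENZ48 (918), beside 19.2 in RES-A (1102) and 22.0 in RES-B (1158). LNCaP-ENZ48 was lowest, LNCaP and RES-A overlapped, and RES-B was highest. The log2 ratio to LNCaP was -0.33 in LNCaP-ENZ48 (-0.46 to -0.20), 0.02 in RES-A (-0.11 to 0.14) and 0.21 in RES-B (0.09 to 0.34), all inside 2-fold. Its sign in RES-A turned with other scalings and with a stricter mitochondrial limit (-0.32 to 0.24).

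**Figure D3:**
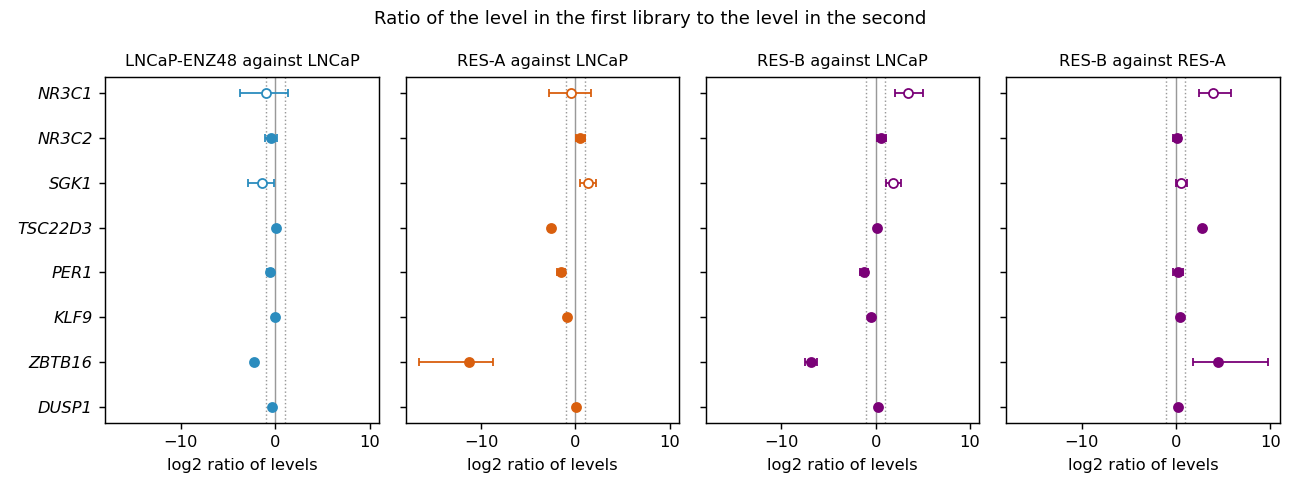
Log2 ratio of levels for each gene in the 4 comparisons, with the exact conditional 95% interval (counting error only). Filled points are genes whose mean reached 1 CPM, open points are NR3C1 and SGK1, which lie below it, and dotted lines mark 2-fold. NR3C1 lies at 3.39 and 3.91 in the RES-B panels, and ZBTB16 at -2.22, -11.26 and -6.82 against LNCaP.

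Few cells had several targets detected, and RES-A had the fewest. In cells thinned to 5000 UMIs, none of the 6 targets was detected in 42.5% of LNCaP cells, 51.6% of LNCaP-ENZ48 cells, 76.5% of RES-A cells and 53.2% of RES-B cells. At least 2 targets were detected in 16.3% of LNCaP cells (exact binomial 95% interval 14.6 to 18.1%), 9.32% of LNCaP-ENZ48 cells (8.47 to 10.2%), 2.28% of RES-A cells (1.86 to 2.75%) and 8.37% of RES-B cells (7.54 to 9.27%). LNCaP-ENZ48 and RES-B overlapped, LNCaP lay above both and RES-A below. The summed level of the 6 targets was 178 CPM in LNCaP and 139 in LNCaP-ENZ48, beside 55.9 in RES-A and 135 in RES-B. ZBTB16, which androgen also induces, held 42.9 CPM of this sum in LNCaP, 9.22 in LNCaP-ENZ48 and 0.380 in RES-B. TSC22D3 held 67.5, 69.1 and 76.7 CPM in these libraries, and KLF9 44.6, 42.8 and 32.7. ZBTB16 also enters the counts per cell, with 18.3% of thinned LNCaP cells and 0.172% of RES-B cells. The summed level of the receptors was highest in RES-B, at 2.70 CPM, beside 1.18, 0.838 and 1.62 CPM in LNCaP, LNCaP-ENZ48 and RES-A.

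**Figure D4:**
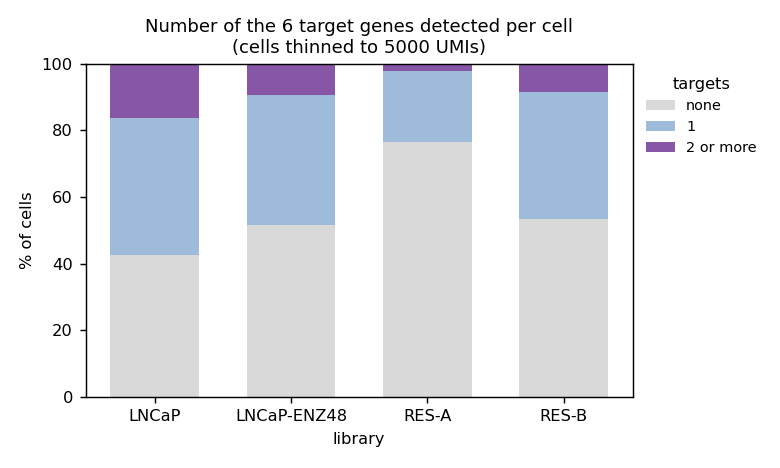
Share of cells of each library (%) in which none, 1, or 2 or more of the 6 target genes had a UMI, after every cell was thinned to 5000 UMIs. The share with none is 76.5% in RES-A and between 42.5 and 53.2% in the other libraries.

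Within RES-B, the cells with NR3C1 were compared with the cells without it as a description, since cells of 1 library are not replicates. Unthinned TSC22D3 was at 88.0 CPM in the 39 NR3C1-positive cells (50 UMIs, 65.3 to 116) and at 76.6 in the other 4022 cells (74.2 to 79.0). KLF9 was at 37.0 CPM (22.9 to 56.5) and 32.6 CPM, and DUSP1 at 21.1 (10.9 to 36.9) and 22.0 CPM. These intervals overlapped, so no difference in TSC22D3, KLF9 or DUSP1 was detectable at this depth. SGK1, PER1 and ZBTB16 had 0 UMIs in the 39 cells, where the exact Poisson upper bound of 6.49 CPM is above their levels of 1.33, 1.42 and 0.385 CPM in the other cells. NR3C2 had 1 UMI there. In the other 3 libraries 3 to 5 cells had NR3C1, too few for the comparison.

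Some members differed between cell cycle phases within a library beyond counting error. In LNCaP, ZBTB16 stood at 47.7 CPM in cells called G1 (45.4 to 50.1), 47.6 in S (42.8 to 52.8) and 21.3 in G2/M (18.4 to 24.5). In LNCaP-ENZ48 it was at 10.1 CPM in G1 (9.22 to 11.1), 6.70 in S and 5.47 in G2/M (3.83 to 7.57). In RES-B, SGK1 was at 0.960 CPM in G1 (0.664 to 1.34) and 2.24 in S (1.35 to 3.50), and KLF9 at 35.3 in G1 (33.4 to 37.3) and 25.8 in S (22.5 to 29.5). TSC22D3 in RES-A lay between 11.1 and 11.5 CPM in all 3 phases, beside 75.2 to 82.0 CPM in RES-B, so that its gap between the lines was present in each phase. Of the 55 NR3C1 UMIs in RES-B, 42 were in G1 cells (1.19 CPM, 0.855 to 1.60), 7 in S and 6 in G2/M cells, with overlapping intervals. The share of cells called G1 was between 65.6 and 79.2% over the libraries, and the part of free RNA in these calls was not tested.

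The genes lie on 7 chromosomes, and their neighbours did not share the size of the larger differences. In GENCODE 44 on GRCh38, NR3C1 spans chr5:143277931-143435512 and DUSP1 chr5:172768096-172771195. NR3C2 is at chr4:148078762-148444698, SGK1 at chr6:134169248-134318112, TSC22D3 at chrX:107713221-107777342, PER1 at chr17:8140472-8156506, KLF9 at chr9:70384604-70414657 and ZBTB16 at chr11:114059041-114256765. The 50 nearest protein-coding genes whose mean reached 10 CPM gave a median log2 ratio relative to all such genes. Around NR3C1 it was -0.07 in RES-B against LNCaP, and around TSC22D3 it was 0.10 in RES-A against LNCaP. Around ZBTB16 it was -0.43 in RES-A and -0.32 in RES-B, and around KLF9 -0.41 in RES-A. Around SGK1 it was 0.32 in RES-A and 0.16 in RES-B, and around PER1 -0.14 and -0.24. These medians of ZBTB16, KLF9, SGK1 and PER1 neighbours were in the same direction as the genes themselves and smaller.

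Other genes known to respond to glucocorticoid were lower in RES-A more often than higher. Of 20 such genes, PDK4 was at 0 in all libraries and for 13 the mean reached 1 CPM. In LNCaP-ENZ48 0 of the 13 were past 2-fold (median log2 ratio -0.34), where 0.768% of all genes were past it higher and 1.25% lower. In RES-A RHOB was past 2-fold higher and ERRFI1, CEBPD, MT2A, MT1X and BCL6 lower (median -0.94), that is 1 and 5 of 13, where 7.89% and 6.86% of all genes were past 2-fold. In RES-B RHOB was higher and CEBPD and IRS2 lower (median -0.35), that is 1 and 2 of 13. Of all genes 7.9% were past 2-fold higher there and 5.33% lower. In RES-B against RES-A 5 were higher and 0 lower (median 0.31), where 5.39% and 4.02% of all genes were. CEBPD, a transcription factor of the acute phase response, had 29.5 CPM in LNCaP and 21.6 in LNCaP-ENZ48, beside 1.12 in RES-A and 4.85 in RES-B. MT1X, a metallothionein and one of a family with near-identical copies whose UMIs may be split, had 400, 272, 71.7 and 530.0 CPM in the same order. BCL6, a transcriptional repressor, had 16.0, 9.20, 3.70 and 10.3 CPM. RES-A was thus the lowest library for CEBPD, MT1X and BCL6, as it was for TSC22D3.

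RHOB, a small GTPase, went the other way, with 19.1 CPM in LNCaP and 23.1 in LNCaP-ENZ48, beside 81.9 in RES-A and 59.0 in RES-B. FKBP5, a cochaperone of the glucocorticoid receptor induced by glucocorticoid and androgen, had 19.8, 10.8, 17.9 and 15.5 CPM. Its log2 ratio was -0.88 in LNCaP-ENZ48 (-1.02 to -0.73), -0.15 in RES-A (-0.28 to -0.02) and -0.35 in RES-B (-0.49 to -0.22), so that no library reached 2-fold. ERRFI1, MT2A and IRS2 are outside the naming rule and were named after their values were seen, because they make up a count.

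**Figure D5:**
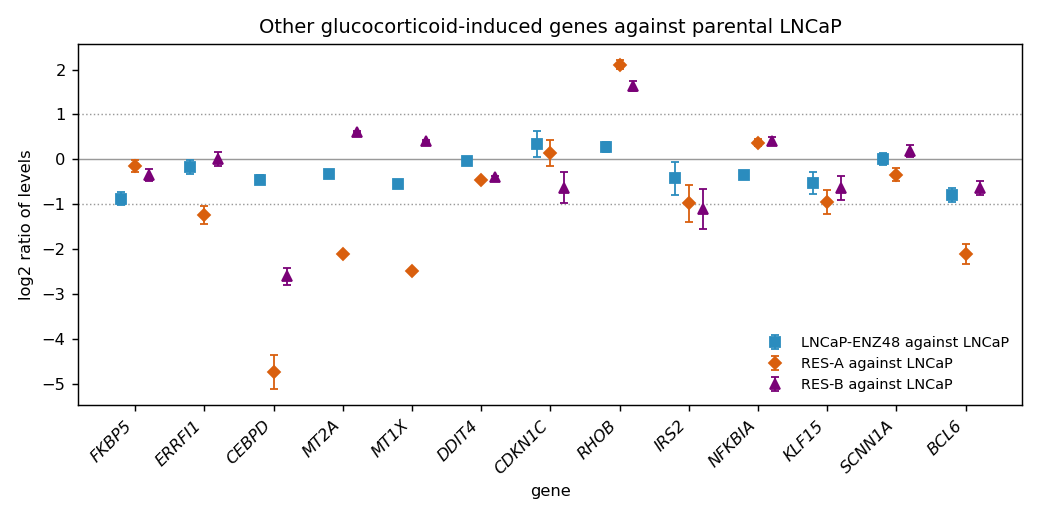
Log2 ratio to LNCaP of the 13 other glucocorticoid-induced genes whose mean reached 1 CPM, for LNCaP-ENZ48, RES-A and RES-B, with the exact conditional 95% interval (counting error only) and dotted lines at 2-fold. CEBPD lies at -4.72 in RES-A and -2.60 in RES-B, and MT2A and MT1X are below -2 in RES-A and above 0 in RES-B.

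The machinery around the receptor was present in every library. Of 12 receptor chaperones, all above 1 CPM, 3 were past 2-fold higher in RES-A (HSP90AA1, HSPA8 and FKBP4) and 2 in RES-B (HSP90AA1 and HSP90AB1), with 0 lower in either and 0 past 2-fold in LNCaP-ENZ48. Of all genes 7.89% were past 2-fold higher in RES-A and 7.9% in RES-B, and in LNCaP-ENZ48 0.768% were higher and 1.25% lower. Median ratios were -0.06 for LNCaP-ENZ48, 0.49 for RES-A and 0.44 for RES-B. HSP90AA1, the inducible form of the chaperone that holds the receptor, had 940 CPM in LNCaP and 1024 in LNCaP-ENZ48, beside 2741 in RES-A and 2550 in RES-B. FKBP4, the cochaperone that exchanges with FKBP5, had 110, 115, 238 and 205 CPM. HSP90AA1 and HSPA8 have processed copies elsewhere in the genome, so that their levels are uncertain. Of 11 coregulators 0 were past 2-fold in any comparison, where between 0.768 and 7.9% of all genes were past it in each direction. NCOA1, a coactivator, was the farthest of them from LNCaP, at a log2 ratio of -0.78 in RES-A.

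Of 6 genes that handle cortisol, the activating enzyme HSD11B1 was at 0 in all libraries and 4 reached 1 CPM. HSD11B2, which inactivates cortisol, was at 12.1 CPM in LNCaP and 12.1 in LNCaP-ENZ48, beside 8.02 in RES-A and 4.89 in RES-B. RES-B was the lowest, with a log2 ratio to LNCaP of -1.31 (-1.52 to -1.09), and RES-A lay between, at -0.59 (-0.77 to -0.41). HSD11B2 was the single gene of the 4 past 2-fold in any comparison, and 5.33% of all genes were past 2-fold lower in RES-B. The 3 other steroid receptors measured, PGR, ESR1 and ESR2, had summed levels of 0.179 CPM in LNCaP and 0.197 in LNCaP-ENZ48, beside 1.64 in RES-A and 1.01 in RES-B, and none reached a mean of 1 CPM. PGR, given outside the naming rule, had 0.0797 and 0.0657 CPM in the parental libraries, beside 1.08 in RES-A and 0.723 in RES-B. Its log2 ratio to LNCaP was 3.76 in RES-A (2.33 to 5.68) and 3.18 in RES-B (1.71 to 5.13). ESR1 and ESR2 were at or under 0.297 CPM in every library.

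Androgen-induced genes, several of which also answer the glucocorticoid receptor, were lower in all 3 comparisons with LNCaP. Of 18 with at least 1 CPM, the number past 2-fold lower was 9 in LNCaP-ENZ48, rising to 13 in RES-A and 11 in RES-B, with 0 higher, where 1.25%, 6.86% and 5.33% of all genes were past 2-fold lower, and the medians were -1.03, -2.74 and -1.39. Against RES-A, RES-B had 8 past 2-fold higher and 0 lower, with a median of 0.66 over the 17 that had UMIs in either line. Of all genes 5.39% were past 2-fold higher in that comparison and 4.02% lower. KLK3, which encodes prostate-specific antigen, had 718 CPM in LNCaP and 94.97 in LNCaP-ENZ48, beside 0.0349 in RES-A and 30.5 in RES-B. It may share reads with its near copy KLK2, which was not tested. KLK3 and ZBTB16 took the same order of libraries, from LNCaP through LNCaP-ENZ48 and RES-B down to RES-A, with log2 ratios in RES-B of -4.56 and -6.82. TSC22D3 stood at a log2 ratio of 0.03 in LNCaP-ENZ48, where KLK3 stood at -2.92.

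The relatives of the targets took directions of their own. Of 11 paralogs above 1 CPM, 0 were past 2-fold in LNCaP-ENZ48, 2 were higher and 3 lower in RES-A, and 3 higher and 2 lower in RES-B, where between 5.33 and 7.9% of all genes were past 2-fold in each direction. SGK2 had 0.120 CPM in LNCaP and 0.214 in LNCaP-ENZ48, beside 3.99 in RES-A and 7.93 in RES-B, and thus stood higher in the same libraries as SGK1. DUSP4, another MAP kinase phosphatase, had 43.3, 22.2, 8.88 and 0.799 CPM, whereas DUSP1 stayed between 15.1 and 22.0 CPM. PER3, a clock gene, had 23.9, 22.0, 8.74 and 21.8 CPM, with RES-A as its low library. Of the 7 other clock genes, NR1D1 was past 2-fold lower in RES-A (4.96 CPM in LNCaP and 4.32 in LNCaP-ENZ48, beside 2.39 in RES-A and 3.37 in RES-B) and 0 were past it elsewhere. Immediate early genes, like DUSP1, answer serum and cell handling within minutes. Of 8 such genes, FOS and ATF3 were past 2-fold lower in RES-A and JUN was past 2-fold higher in RES-B, with 0 in LNCaP-ENZ48. Beside the clock and immediate early genes, 6.86% of all genes were past 2-fold lower in RES-A and 7.9% past 2-fold higher in RES-B. In LNCaP-ENZ48 0.768% of all genes were past 2-fold higher and 1.25% lower.

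The genes whose pattern was most like that of NR3C1 were sought by the smallest root mean square difference of the 3 log2 ratios to LNCaP, among 7460 genes whose mean reached 10 CPM. ARRDC3 was the closest (difference 0.78), with 11.2 CPM in LNCaP and 12.0 in LNCaP-ENZ48, beside 11.7 in RES-A and 82.6 in RES-B. PLK2 (0.82) had 8.82, 6.87, 5.55 and 39.2 CPM, and ADGRV1 (0.85) had 13.6, 13.6, 10.9 and 68.6 CPM. All 3 were high in RES-B alone, and the pattern of NR3C1 that they were matched to rests on 3 to 5 UMIs in each of the other libraries.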

How the data were processed

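The authors made the deposited UMI counts per gene and cell barcode with Cell Ranger 3.0.2 and its GRCh38 reference from 3′ droplet libraries. The counts were used as deposited. Cells were kept by the study's limits: 3000 to 7000 genes and 16000 to 50000 UMIs in LNCaP, 1500 to 5000 genes and 5000 to 25000 UMIs elsewhere, with mitochondrial shares under 15% (LNCaP and LNCaP-ENZ48), 17% (RES-A) and 20% (RES-B). Doublets were not removed, and leaving out the 5% of cells with most UMIs is an alternative. UMIs were summed per library and given as CPM with exact Poisson intervals, and ratios have exact conditional binomial (Clopper-Pearson) intervals. In a ratio, 3 UMIs stood in for a library's count of 0. Shares of cells were read after thinning each cell to 5000 UMIs, and the cell cycle was called with the Seurat 5.3.0 lists in scanpy 1.11.5. The interval and ratio code was tested on simulated data (Python 3.11.15, numpy 2.4.6, scipy 1.17.1). TMM factors came from edgeR 4.0.16 and size factors from DESeq2 1.42.0, as alternatives only. Groups were taken from the titles and treatments. Symbols are those of the count files, and 33113 gene IDs were found in GENCODE 44.

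The members and gene lists were chosen with earlier results of these data known. Named were all 8 members, up to 4 genes of each other list by the largest log2 ratio to LNCaP in size among genes whose mean reached 1 CPM, FKBP5 and HSD11B2 always, and the 3 genes most like NR3C1. The lists were textbook genes. The androgen receptor transcript is not reported here.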

Additional observations from a re-analysis of the deposited data

Results flagged for a closer look

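TSC22D3 lay on opposite sides of parental LNCaP in the resistant lines, with a log2 ratio of -2.56 for RES-A and 0.19 for RES-B. The RES-B value was small, beside a median of 0.10 over all genes in that comparison. It was 0.08 with TMM scaling and 0.09 with DESeq2 size factors. Each line is 1 library, so the difference between the lines was not tested. The fall in RES-A was between -2.62 and -2.40 under all alternatives run, and the value in RES-B between 0.08 and 0.47.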

How the results depend on the processing

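No paired analysis was possible because each group is 1 library with no replicate number, and for the same reason no library could be left out. The log2 ratio of NR3C1 in LNCaP-ENZ48 against LNCaP turned from -1.01 to 0.0871 in cells called G1, on 3 and 2 UMIs. With a mitochondrial share under 10%, 2 members in place of 1 were past 2-fold higher in RES-A. Thinned to 2000 UMIs, the share of cells with NR3C1 was 0% in LNCaP and RES-A and 0.148% in RES-B, and without thinning it was 0.960% in RES-B. Members past 2-fold lower in LNCaP-ENZ48 went from 3 to 2 with a mitochondrial share under 10%, in G1 cells, and with TMM scaling or DESeq2 size factors, since NR3C1 no longer reached 2-fold (-0.92 with TMM). With these counts included, 100 values that answer a comparison stayed within their interval or within 1.5 times, 5 moved further and 1 past 2-fold changed sign. The value past 2-fold that changed sign was that of NR3C1 in LNCaP-ENZ48 in G1 cells. A change of sign inside 2-fold was not counted as one. NR3C1 in RES-A, at -0.51, turned to 0.18 with every barcode and 1.27 with a mitochondrial share under 10%, and both are among the 100. Of the values of other single genes and background shares, 212 stayed and 90 moved further. Among these, 0 that were past 2-fold changed sign. NR3C1 in RES-B stayed between 3.26 and 4.65 against LNCaP under the filters and scalings tried. Signs turned for KLF9 in LNCaP-ENZ48 (-0.08 to 0.04) and DUSP1 in RES-A (-0.32 to 0.24) with a mitochondrial share under 10%, TMM scaling or DESeq2 size factors. They also turned for NR3C1 in RES-A (-1.10 to 1.27), and in RES-B against RES-A for NR3C2 (down to -0.10), SGK1 (down to -0.32) and PER1 (down to -0.55). KLF9 in RES-A crossed 2-fold (-1.05 to -0.84). TMM scaling moved the median of all genes from -0.08 to 0.01 in LNCaP-ENZ48 and from 0.10 to 0.00 in RES-B. Over genes with a mean of 10 CPM in place of 1 CPM, the share past 2-fold lay between 0.335 and 4.73% over comparisons and directions, and over genes with at least 1 UMI between 7.42 and 16.0%. The cause of these moves was not tested. Depth limits NR3C1, NR3C2 and SGK1, which have under 100 UMIs in every library.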
